A study of Mus musculus with 4 samples.

Results

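The BCL2 family at the mitochondrial membrane is described here by 10 genes in liver cell preparations of mice bred to lack PNPase in hepatocytes. They are the effectors Bax and Bak1, the anti-apoptotic members Bcl2, Bcl2l1 (BCL-XL) and Mcl1, and the BH3-only members Bid, Bcl2l11 (BIM), Bbc3 (PUMA), Pmaip1 (NOXA) and Bik. They were chosen by name, with earlier results of these data known. Every array probe whose RefSeq accession belongs to one of these symbols was taken, which gave 16 probes for 10 of 10 genes, out of 16358 genes with a named probe and 11493 genes measured. HepKO mice (C57BL/6J) carried floxed Pnpt1 alleles (fl/fl, named neo-fl in the breeding scheme) with Albumin-Cre (Albumin-Cre/wt), a recombinase driven by a hepatocyte promoter. WT mice were littermates of the same sex and strain that carried the floxed alleles without Cre. The 4 mice formed a pair labelled male, aged 12.29 weeks (12.9 in other fields of the labels), and a pair labelled female, aged 4.29 weeks. Each pair was hybridised on 2 two-colour arrays with the dyes exchanged. The 2 arrays of a pair share their RNA extracts and count as 1 replicate, so that n = 2 pairs in every value below.

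BCL2 family proteins decide whether the mitochondrial outer membrane stays intact. BAX and BAK1 form pores in it when activated, which releases cytochrome c and starts the caspase cascade. BCL2, BCL-XL and MCL1 bind and restrain them, and the BH3-only proteins neutralise these guardians or activate the effectors directly. In hepatocytes BCL-XL and MCL1 are the guardians whose loss alone is known to cause spontaneous apoptosis, and BID links death receptors at the cell surface to mitochondria. PNPase, encoded by Pnpt1, is an RNA exonuclease that sits mainly in the mitochondrial intermembrane space and matrix.

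No sorting step is described, so the RNA is that of all cells in the collagenase-perfused and washed pellet, in which more cells of a type and more RNA per cell cannot be told apart. The hepatocyte marker Alb was well above background in HepKO and in WT on all 4 arrays. The share of probes well above background ran from 48.2% to 58.6% over arrays and genotypes, and 0 spots were saturated. The dye-swapped arrays of a pair correlated across probes at 0.917 for the male pair and 0.936 for the female pair, and the pair means at 0.832. Probes are not independent replicates. In both genotypes Xist passed the background test on 2 of 2 male-labelled and 0 of 2 female-labelled arrays, and Ddx3y, Eif2s3y and Kdm5d the other way round. These genes thus ran against the labelled sex. The pairs are called male and female as labelled, and every ratio is taken within a pair. The targeted gene Pnpt1 had a log2 HepKO over WT of -0.10 ± 0.19 at its brighter probe and -0.52 ± 0.13 at its dimmer one. On single arrays these were 0.31 and 0.06 for the male pair and -0.38 on both female pair arrays at the brighter probe, and -0.67 and -0.32 for the male pair and -0.50 and -0.60 for the female pair at the dimmer. Neither passed the test (limma, adjusted p = 0.747 and 0.08 over all probes), and the sources used here do not say whether either lies in the deleted part.

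Of the 10 members, Bak1 and Bcl2 were higher in HepKO by the test, and none was lower. Over all genes measured, 12.0% were higher and 3.72% lower. The test was limma's linear model on the 2 pair values, with Benjamini-Hochberg adjustment over 11493 genes and a threshold of 0.05. The other 8 members did not pass. The median log2 HepKO over WT of the 10 members was 0.65, against 0.08 over all genes, and it was 0.91 for the male pair and 0.38 for the female pair. The ratio was above 0 on all 4 arrays for 8 members (39.4% of all genes), below 0 on all 4 for Bik (25.0%), and mixed for Bcl2l1. Bak1 counts among the 8, and as higher by the test, through its brighter probe. Its dimmer probe was below 0 on all 4 arrays. Tested probe by probe, 2 of the 16 member probes, the brighter ones of Bak1 and Bcl2, were higher and 0 lower, against 7.32% higher and 2.99% lower (10.3% in either direction) of all 22805 kept probes. At an unadjusted p below the threshold, 8 members were higher and 0 lower, while 23.6% of all genes were higher and 12.7% lower at that level. Pmaip1, counted here and among those above 0 on all 4 arrays, entered the test through its HepKO signal alone. The counts depend on how the background was modelled. With the normexp background model fitted on all spots, outlier-flagged spots included, 0 of 11493 genes passed in limma (3005 at an unadjusted p under 0.05), and without the filter on dim probes 0 of 16339 passed (4638 unadjusted).

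**Figure D1:**
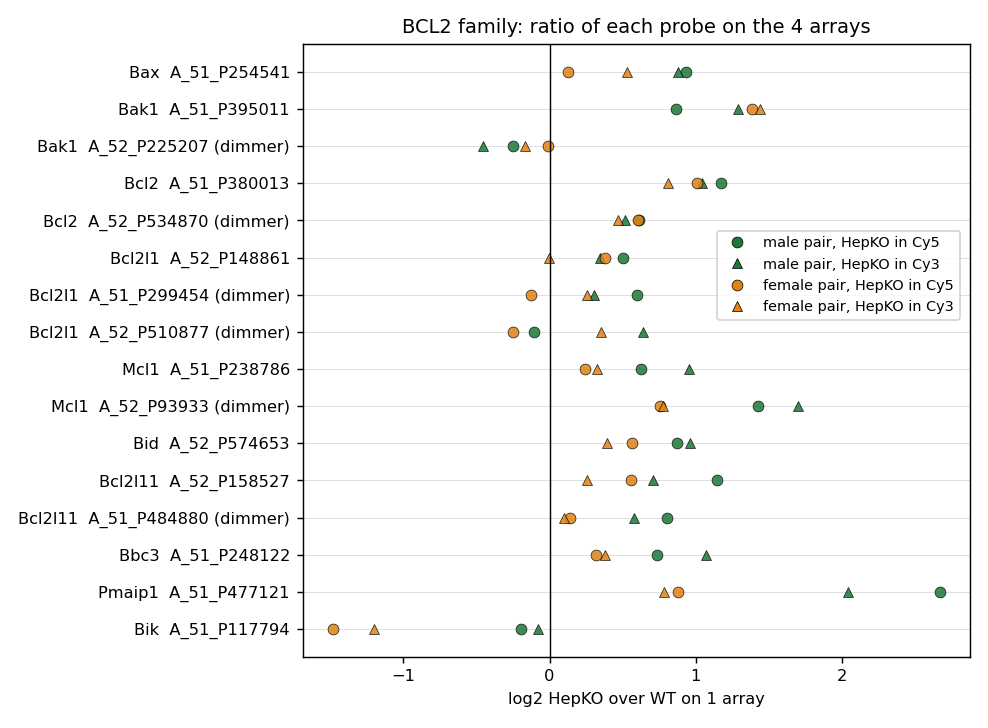
Log2 HepKO over WT of the 16 probes of the 10 members on each of the 4 arrays, with colour for the pair and shape for the dye of the HepKO RNA. The brighter Bak1 probe lies between 0.87 and 1.44 and the dimmer one between -0.45 and -0.01, and Bik lies between -0.19 and -0.08 in the male pair and between -1.48 and -1.20 in the female pair.

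The upstream sequences of the members that passed are shown with that of Bax, the other effector, to set the windows of these genes beside each other. The 250 bases before the gene start come from RefSeq (GRCm38.p6) and are written 5′ to 3′ on the gene's strand. Capitals mark the GC box GGGCGG on either strand and, in Bax, a p53 half-site. The Bak1 window is chr17:27028628-27028877 on the minus strand, the Bcl2 window chr1:106714291-106714540 on the minus strand, and the Bax window chr7:45466899-45467148 on the minus strand.
Bak1: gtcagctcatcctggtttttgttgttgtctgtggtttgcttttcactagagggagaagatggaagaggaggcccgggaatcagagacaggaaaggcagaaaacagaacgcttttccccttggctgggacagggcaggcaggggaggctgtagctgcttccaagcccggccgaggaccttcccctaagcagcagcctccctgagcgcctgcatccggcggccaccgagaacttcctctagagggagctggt
Bcl2: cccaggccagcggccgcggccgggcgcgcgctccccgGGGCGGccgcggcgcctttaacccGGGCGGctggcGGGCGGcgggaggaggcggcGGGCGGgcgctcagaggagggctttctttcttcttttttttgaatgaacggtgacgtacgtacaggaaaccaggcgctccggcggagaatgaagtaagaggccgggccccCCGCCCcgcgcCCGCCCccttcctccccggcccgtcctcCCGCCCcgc
Bax: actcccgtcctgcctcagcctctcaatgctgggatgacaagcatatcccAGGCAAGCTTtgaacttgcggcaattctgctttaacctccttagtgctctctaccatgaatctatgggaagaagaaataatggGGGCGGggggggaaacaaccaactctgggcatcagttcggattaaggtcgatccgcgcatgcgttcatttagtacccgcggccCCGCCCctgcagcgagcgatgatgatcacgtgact
The Bcl2 window held 7 GC boxes and was 74.8% G and C, the Bax window held 2 at 54.0%, and the Bak1 window held 0 at 58.4%. The table covers 8 of the 10 members in 13 windows, some of which overlap (Bbc3) or belong to alternative starts of a gene. A GC box stood in 9 of these 13 windows and in 32.7% of all 32851 windows of that length. A p53 half-site (a decamer with degenerate letters, searched on both strands) was found in the Bax window alone among the 13, starting 201 bases before the gene start, and in 7.13% of all windows. No member window held the interferon-stimulated response element (GAAA, NN and GAAA in a row; 2.98% of all windows), the interferon-gamma activated sequence TTCNNNGAA (7.02%), the CHOP and ATF4 composite TGATGNAA (3.45%) or the TATA box TATAAA (12.4%). These are matches of letters and no evidence of binding.

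Bak1, which codes for the effector that resides on the mitochondrial outer membrane, had a log2 normalized signal in WT of 9.72 and 9.34 on the male pair arrays and 8.68 and 8.64 on the female pair arrays, at its brighter probe A_51_P395011. In HepKO it was 10.58 and 10.63 for the male pair and 10.07 for the female pair on both arrays. Every HepKO value lay above every WT value. The log2 ratio was 1.08 for the male pair and 1.41 for the female pair, with a mean of 1.25 ± 0.16 (moderated SE, n = 2 pairs), or 2.37-fold (limma, adjusted p = 0.0228). The dimmer probe of the same RefSeq transcript, A_52_P225207, did not show this. Its ratios were -0.25 and -0.45 for the male pair and -0.01 and -0.17 for the female pair, with a mean of -0.22 ± 0.14 (limma, adjusted p = 0.34 over 22805 probes). Both probes were well above background on all 4 arrays in both genotypes. The spread of 1.47 between them was reached or passed by 1.09% of the 3963 genes with several kept probes, and 19.9% of those genes had probes of opposite sign. With all kept probes of a gene averaged, Bak1 stood at 0.51 ± 0.15 and did not pass (adjusted p = 0.102). With male pair replicate 2 left out it did not pass either (1.14, adjusted p = 0.0526). The position of each probe on the transcript was not used here.

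Bax, which codes for the effector that moves from the cytosol to mitochondria, had 1 probe. Its WT signal ran from 8.61 to 9.32 and its HepKO signal from 9.45 to 9.96, without overlap. The log2 ratios were 0.93 and 0.88 for the male pair and 0.12 and 0.53 for the female pair. The mean was 0.62 ± 0.20, or 1.53-fold, with a 95% interval of 0.07 to 1.17. It did not pass (limma, adjusted p = 0.114). The female pair value of 0.33 was lower than the male pair value of 0.91.

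Bcl2, the founding anti-apoptotic member, had the smallest difference between the pair values among the 10 genes, 0.20 on the log2 scale. At its brighter probe A_51_P380013 the WT signal was 6.17 and 6.66 for the male pair and 6.38 and 6.56 for the female pair. The HepKO signal was 7.35 and 7.70 for the male pair and 7.39 and 7.37 for the female pair, so that the genotypes did not overlap. The ratio was 1.11 for the male pair and 0.91 for the female pair, with a mean of 1.01 ± 0.15, or 2.01-fold (limma, adjusted p = 0.0279). The mean was 1.44 with an offset of 16 and 1.84 with the scanner software's own log ratios. The size of this ratio thus depends on the processing. The dimmer probe A_52_P534870, which is annotated to another Bcl2 transcript, had ratios of 0.61, 0.52, 0.61 and 0.47 on the 4 arrays. It was well above background on 4 of 4 arrays in HepKO and on 0 of 4 in WT, so its WT level is uncertain. Raising WT to at least the lowest signal well above background left its measured ratio of 1.46-fold unchanged. That lowest signal did not exceed the probe's own WT signal on any array, so nothing was raised. This is no check on the ratio. At the level of probes the dimmer probe's mean of 0.55 ± 0.12 did not pass (limma, adjusted p = 0.0725).

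Mcl1, a short-lived guardian on which hepatocytes depend, was measured by 2 probes that were both above 0 on all 4 arrays but differed in size. At the brighter one, A_51_P238786, the WT signal was 11.84 and 11.63 for the male pair and 11.84 and 11.83 for the female pair. The HepKO signal was 12.47 and 12.58 for the male pair and 12.08 and 12.15 for the female pair. The genotypes did not overlap, and the WT level was close to the same in both pairs. The mean log2 ratio was 0.54 ± 0.19 (1.45-fold; limma, adjusted p = 0.13), with 0.79 for the male pair and 0.28 for the female pair. The dimmer probe A_52_P93933 had ratios of 1.42 and 1.70 for the male pair and 0.76 and 0.78 for the female pair. Its mean was 1.16 ± 0.24 (2.24-fold; limma, adjusted p = 0.0622 over 22805 probes), and it did not pass either. The average of both probes was 0.85 (adjusted p = 0.0758).

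Bcl2l1, whose main product BCL-XL is the other guardian of hepatocytes, had the ratio closest to 0 of the 10 members. The ratios of its brightest probe were 0.50, 0.35, 0.38 and -0.0019 on the 4 arrays, and the WT signal of 8.21 to 8.46 overlapped with the HepKO signal of 8.29 to 8.91. The mean was 0.31 ± 0.15 with a 95% interval of -0.11 to 0.73 (limma, adjusted p = 0.231). It was 0.52 with each array centred on its median and 0.17 with HepKO in Cy3 alone. The means of its other probes were 0.26 ± 0.16 and 0.16 ± 0.14. One of them, A_52_P510877, followed the dye rather than the pair, with -0.10 and -0.25 where HepKO was in Cy5 and 0.64 and 0.35 where it was in Cy3.

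**Figure D2:**
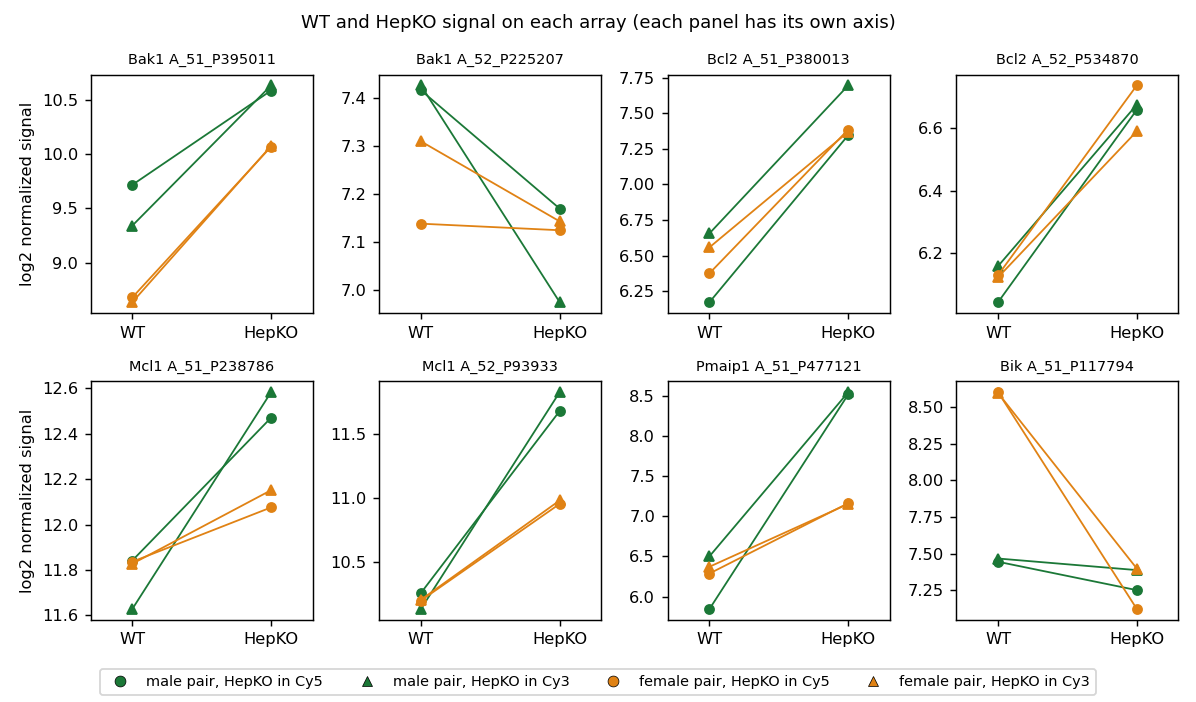
Log2 normalized signal of WT and HepKO on each array for 8 probes of Bak1, Bcl2, Mcl1, Pmaip1 and Bik, with a line for each array and an axis of its own for each panel. The Bak1 probes slope in opposite directions, and the female pair WT signal of Bik, at 8.60 on both arrays, stands above the other Bik values.

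None of the 5 BH3-only genes passed the test in limma. At an unadjusted p below the threshold 4 were higher and 0 lower, against 23.6% higher and 12.7% lower of all genes. Pmaip1 codes for NOXA, a binder of MCL1. In WT its signal was 5.85 and 6.50 for the male pair and 6.29 and 6.37 for the female pair, and it was well above background on 1 of these 4 arrays. In HepKO it was 8.52 and 8.54 for the male pair and 7.16 and 7.15 for the female pair, and above background on 4 of 4. No HepKO value overlapped with a WT value. The ratio was 2.36 for the male pair and 0.83 for the female pair, with a measured mean of 1.59 ± 0.40 that did not pass (limma, adjusted p = 0.0719). Since 3 of the 4 WT signals were not well above background and Pmaip1 entered the test through its HepKO signal alone, the size of this ratio is uncertain and has no rank among the members. It was 2.23 with an offset of 16 and 3.95 with the scanner software's log ratios.

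Bid, which caspase-8 cleaves into its active form, had ratios of 0.87 and 0.96 for the male pair and 0.56 and 0.40 for the female pair. Its mean was 0.70 ± 0.18, or 1.62-fold (limma, adjusted p = 0.073). The WT signal of 9.68 to 9.77 in the male pair was above the HepKO signal of 9.24 to 9.33 in the female pair, so that the genotypes overlapped across pairs and not within them. Bcl2l11 (BIM), an activator of BAX and BAK1, had 2 probes. The brighter one had ratios of 1.15 and 0.71 for the male pair and 0.56 and 0.26 for the female pair and a mean of 0.67 ± 0.19 (adjusted p = 0.0901). The dimmer one had a mean of 0.41 ± 0.19, with 0.14 and 0.10 on the female pair arrays. Bbc3 (PUMA), a p53 target that binds all guardians, had ratios of 0.73 and 1.07 for the male pair and 0.32 and 0.38 for the female pair. Its mean was 0.63 ± 0.20 (1.54-fold; limma, adjusted p = 0.107). Its signal was higher in the male pair in both genotypes, with 11.20 to 11.72 in WT and 12.27 to 12.45 in HepKO, against 10.51 to 10.56 and 10.88 to 10.89 in the female pair.

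Bik, a BH3-only protein found mainly at the endoplasmic reticulum, was the member with a mean below 0. Its HepKO signal was 7.25 and 7.39 for the male pair and 7.12 and 7.40 for the female pair. Its WT signal was 7.44 and 7.47 in the male and 8.60 on both arrays of the female pair. The HepKO levels of the pairs were thus close to each other, and it was the WT level that differed. The ratio was -0.14 for the male pair and -1.34 for the female pair, and the mean of -0.74 ± 0.33 had a 95% interval of -1.64 to 0.16 (limma, adjusted p = 0.192). With the scanner software's log ratios the mean was -1.21.

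**Figure D3:**
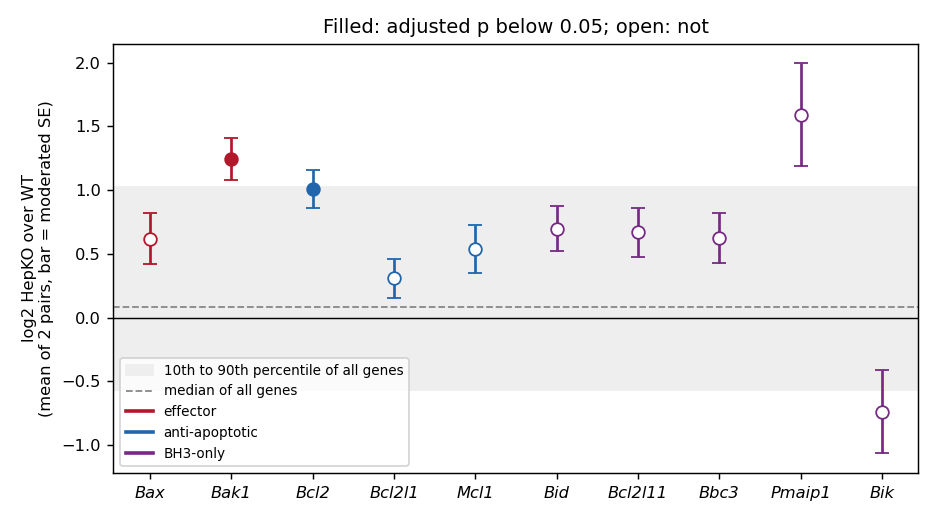
Mean log2 HepKO over WT of the 10 members (n = 2 pairs, bars are the moderated SE), coloured by role and filled where the adjusted p is below 0.05. The grey band runs from the 10th percentile (-0.57) to the 90th percentile (1.02) of all 11493 genes, and the dashed line is their median of 0.08.

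By role, the median log2 ratio was 0.93 for the 2 effectors, 0.54 for the 3 anti-apoptotic members and 0.67 for the 5 BH3-only members. These medians rest on few genes, were not tested against each other and depend on the probe that stands for a gene. With all kept probes averaged, Bak1 stood at 0.51 and Bax, with 1 probe, at 0.62. Bcl2 then stood at 0.78, Mcl1 at 0.85 and Bcl2l1 at 0.24. The effectors' median was then below that of the anti-apoptotic members. The male pair value was the larger in size for 8 of the 10 members, all but Bak1 and Bik. Over all genes it was the larger for 67.3%. With 1 replicate a pair, differences between the pairs were not tested, and the pairs differ in age, slide and sex at once, which cannot be told apart. The genotypes' signals did not overlap for 7 members, with HepKO above WT for 6 (30.8% of all genes) and below it for Bik (17.1%). Pmaip1, among the 6, entered the test through its HepKO signal alone, and Bak1, also among them, is counted by its brighter probe. The signals of a genotype are dye orientations of 2 mice and no separate replicates.

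**Figure D4:**
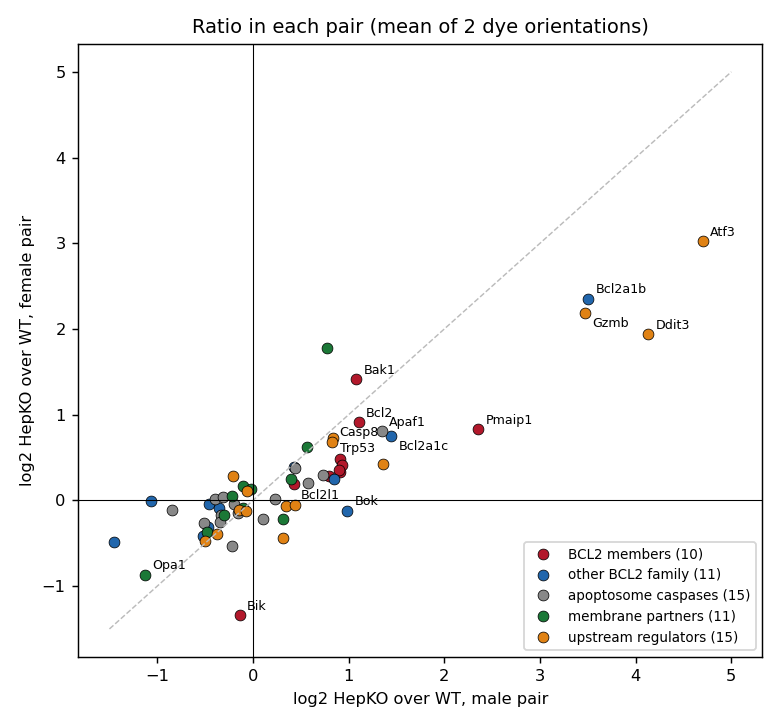
Log2 HepKO over WT in the male pair against the female pair for the 10 members and the 4 other gene lists (measured genes in brackets), each point the mean of 2 dye orientations, with a dashed line of equality. Members lie mostly right of the line, Bak1 lies above it at 1.08 and 1.41, and Bok lies at 0.98 and -0.12.

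Other genes of the BCL2 family numbered 16 on the list, of which 13 had a named probe and 11 were measured. Bcl2a1b rose and none fell, with a median of -0.22 over the measured genes. Bcl2a1c also passed the threshold, but it entered the test through its HepKO signal alone. Both belong to the Bcl2a1 (A1) cluster of near-identical genes of leukocytes, which a probe may not tell apart. Bcl2a1b had ratios of 3.70 and 3.31 for the male pair and 2.42 and 2.29 for the female pair, with a mean of 2.93 ± 0.32, or 7.62-fold (limma, adjusted p = 0.0175). Bcl2a1c was well above background on 4 of 4 arrays in HepKO and 0 of 4 in WT, so its WT level is uncertain. Its measured mean was 1.10 ± 0.22, or 2.14-fold (limma, adjusted p = 0.0479). Raising WT to at least the lowest signal well above background left this fold unchanged, since that signal did not exceed the probe's own WT signal. This is no check on the ratio. The call for Bcl2a1c was lost in 6 of 16 alternative settings, among them without male pair replicate 2 (adjusted p = 0.0755) and without female pair replicate 1 (0.0759). Over the 16 its adjusted p ran from 0.00814 to 0.177, and its mean was 4.01 with the scanner software's log ratios.

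Markers of other cells differed on the same arrays. Of 12 macrophage markers measured, 10 rose and none fell, and their summed signal was 74850 to 83258 in HepKO against 9450 to 23341 in WT. Of 13 lymphocyte markers, 7 rose, with a summed signal of 4466 to 10267 in HepKO against 942 to 1247 in WT. Of the CD3 chains of the T cell receptor complex, Cd3e stood at 0.06, Cd3d at 1.62 and Cd3g at 1.08. The neutrophil list had 3 of 10 higher (2405 to 5049 in HepKO, 806 to 1061 in WT). The endothelial list had 8 of 12 higher (14176 to 15124 against 6010 to 8718), the stellate list 6 of 12 (18261 to 21132 against 9922 to 10875) and the cholangiocyte list 1 of 7 (3668 to 7388 against 1827 to 2221). Of 9 proliferation genes, 8 rose (13879 to 17085 against 824 to 1501). The hepatocyte list had 0 of 10 higher and 1 lower (413214 to 544152 against 529285 to 725166). In WT, 2 macrophage, 4 lymphocyte, 4 neutrophil, 1 endothelial, 2 cholangiocyte and 3 proliferation genes were well above background on 0 of 4 arrays. Among the genes that rose, Top2a and Bub1 (0 of 4 in WT) and Cd8b1 and Col1a1 (1 of 4) entered the test through their HepKO signal alone. Cd3g and Ccnb1, which also rose, were well above background on 2 of 4 WT arrays. Ngp, Ltf and Krt19, which did not pass, were so on 1 of 4. The defining markers Adgre1 (1.61) and Pecam1 (0.91) were well above background in both genotypes. The part of these cells in the values of Bcl2a1b, Bcl2 or any other member was not tested.

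Downstream of the membrane, 15 genes of the apoptosome, the caspases and their inhibitors were measured. Apaf1, the scaffold that cytochrome c assembles into the apoptosome, rose by 1.08 ± 0.19, or 2.11-fold (limma, adjusted p = 0.0385). Its ratios were 1.60 and 1.08 for the male pair and 0.84 and 0.78 for the female pair. Its mean was 2.19 with the scanner software's log ratios. Its other probes had means of 0.98 and 0.41. In WT these were well above background on 2 of 4 and 0 of 4 arrays, so their WT level is uncertain. Apaf1 lost its call in 5 of 17 alternative settings, among them without male pair replicate 2 (adjusted p = 0.0652) and without female pair replicate 1 (0.052). The other 14 did not pass, with Birc2, an inhibitor of apoptosis, at 0.51 ± 0.18 (adjusted p = 0.128). The list median was -0.14.

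Of 11 membrane partners measured, 1 fell and none rose, with a median of 0.03. Opa1, the GTPase that fuses the inner membrane and keeps cristae tight, had ratios of -1.17 and -1.09 for the male pair and -0.84 and -0.90 for the female pair. Its mean was -0.999 ± 0.16 (limma, adjusted p = 0.0298). Slc25a4, an ADP/ATP carrier of the inner membrane, had the largest ratio of this list and did not pass (1.28 ± 0.28, adjusted p = 0.0572), with 0.78 for the male pair and 1.78 for the female pair.

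Of 15 measured genes for factors that act on members, 5 rose and none fell, with a median of 0.14. Ddit3 (CHOP), a stress transcription factor that induces Bcl2l11 and represses Bcl2 in other cells, rose by 3.04 ± 0.56, or 8.21-fold (limma, adjusted p = 0.0404). Its pair values were 4.13 and 1.94. Atf3, a stress factor of the same network, rose by 3.86 ± 0.44 (limma, adjusted p = 0.0185). Gzmb, the protease of cytotoxic lymphocytes that cleaves BID, rose by 2.83 ± 0.35 (limma, adjusted p = 0.0206). Casp8, which cleaves BID in hepatocytes, rose by 0.76 ± 0.15 (limma, adjusted p = 0.0437). Trp53, which encodes the activator of Bbc3, Pmaip1 and Bax, rose by 0.78 ± 0.14 at its brighter probe (limma, adjusted p = 0.0402), while its dimmer probe stood at -0.06. Casp8 lost its call in 7 of 16 and Trp53 in 8 of 17 alternative settings, and with its kept probes averaged Trp53 stood at 0.36. Without male pair replicate 2 the adjusted p was 0.0889 for Casp8, 0.0714 for Trp53 and 0.0626 for Ddit3. Without female pair replicate 1 it was 0.0515, 0.0505 and 0.0529.

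**Figure D5:**
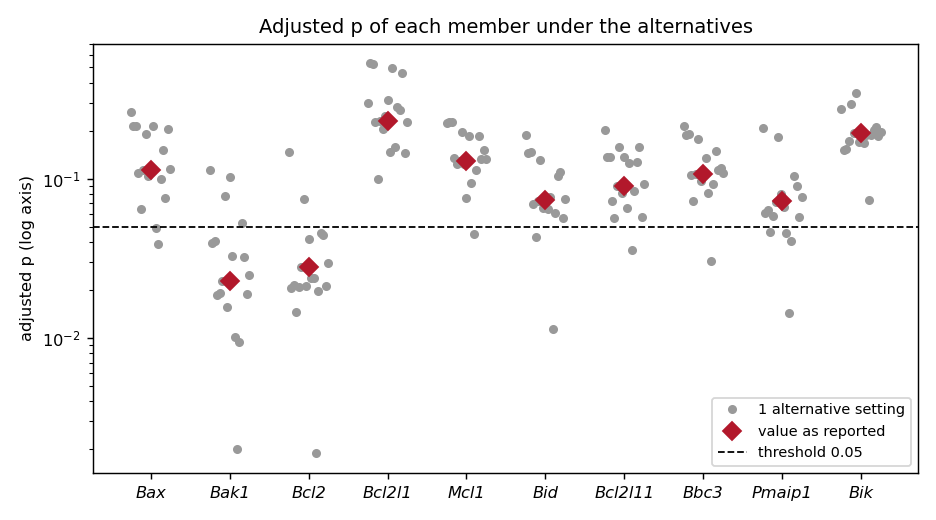
Adjusted p (log axis) of each member as reported (diamond) and under each alternative setting (grey points), with the threshold of 0.05 as a dashed line. Bak1 lies below the threshold in 13 of 17 alternatives and Bcl2 in 15 of 17, while Bcl2l1 and Bik stay above it in all 17. Some alternatives share the same or nearly the same ratios.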

How the data were processed

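RNA of 2 HepKO and WT pairs was hybridised on 4 two-colour Agilent arrays (2 dye orientations a pair). The deposited spot files hold the intensity of each dye and a log10 ratio, written by Feature Extraction 10.2.1.3 per the file headers. The authors' deposited value table correlated with these log ratios at almost 1 in size, with the sign turned on the 2 arrays that had HepKO in Cy3. Here, outlier-flagged spots (178 to 260 an array) were left out, and mean signals were corrected with normexp (offset 50) and loess-normalized in R 4.3.3 with limma 3.58.1. Spots of a probe and the 2 orientations of a pair were averaged. Of 41174 probes, 22951 (55.7%) were named through RefSeq accessions (annotation GRCm38.p6, used for names and promoters). A probe was kept if well above background on both arrays of a pair in 1 genotype, and a gene took the value of its brightest kept probe. limma's linear model was fitted to the 2 pair values, with Benjamini-Hochberg adjustment over 11493 genes and a threshold of 0.05. ± is the moderated SE. The number of arrays limits the precision. A further ratio was taken for probes not well above background in WT. It set the HepKO mean against the higher, on each array, of the probe's own WT signal and the lowest signal well above background. For the dimmer Bcl2 probe and Bcl2a1c it equalled the measured ratio, so no WT signal was raised and it is no check on these ratios. Procedures were tested on simulated data. With 2 pairs small changes can be missed, and a gene that did not pass is not shown to be unchanged. All members are named, and of the other lists the genes that passed (up to 6) and the 2 largest ratios. Members and lists were chosen with earlier results of these data known.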

Additional observations from a re-analysis of the deposited data

Results flagged for a closer look

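Bok, an effector-like family member outside the 10 genes and named here after its values were seen, had log2 HepKO over WT ratios of 1.07 and 0.89 on the male pair arrays and of -0.09 and -0.15 on the female pair arrays. Every array of one pair was above 0 and every array of the other below, which 8.46% of all genes also showed in either order. The pair values differed by 1.10, and this difference was not tested, since each pair is 1 replicate. The Bok signal was 8.74 and 9.14 in WT and 9.82 and 10.04 in HepKO in the male pair, against 10.53 and 10.64 in WT and 10.44 and 10.49 in HepKO in the female pair.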

How the results depend on the processing

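Of 169 member values under 17 alternative settings, 152 kept their direction and their side of the threshold, 6 lost and 11 gained the call, and 0 changed sign. Among these settings, quantile normalization between arrays leaves every ratio unchanged. The authors' value table nearly repeats the scanner software's log ratios. Such settings are no separate checks. With normexp fitted on all spots, 0 genes were higher, 0 lower and 0 members higher, with Bak1 at 1.05 (adjusted p = 0.114) and Bcl2 at 0.83 (0.146). The female pair replicate 2 array held a green background of up to 41156.5 (median 29). Without the filter on dim probes the counts were also 0, 0 and 0, with Bak1 at 1.25 (0.0777) and Bcl2 at 1.01 (0.0745). With the mean of all kept probes 1 member was higher and Bak1 stood at 0.51. With HepKO in Cy3 alone, 686 genes were lower and 4 members higher, with Bax at 0.71 and Pmaip1 at 1.41. Pmaip1 passed at 2.23 with an offset of 16, and Bid at 0.85 with median centring. With the 4 arrays and the pair as a random block, a setting chosen after seeing the data that treats dye swaps as partly separate (correlation 0.474), 2685 genes were higher, 1394 lower and 8 members higher. Besides Bak1 and Bcl2 these were Bax (0.62), Mcl1 (0.54), Bid (0.70), Bcl2l11 (0.67), Bbc3 (0.63) and Pmaip1 (1.59). The planned block fit with a dye term was not run, since its correlation cannot be estimated from 4 arrays. Also leaving out spots with a background population flag, chosen after seeing the data, gave 1219 higher, 365 lower and 2 members. Leaving out 1 array at a time gave 921 to 1578 genes higher, 203 to 576 lower and 1 to 3 members higher, with Bak1 at 1.14 to 1.35 and Pmaip1 at 1.43 to 1.75. The lowest counts came without male pair replicate 2 and the highest without male pair replicate 1. The cause was not tested for these settings. Pmaip1 gave no value where probes had to be above background throughout. Signal near background limits Pmaip1 and the dimmer Bcl2 probe in WT.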
